A study of Mus musculus with 6 samples.

Results

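The genes described here encode the factors that start and elongate protein chains and the aminoacyl-tRNA synthetases that charge tRNAs with amino acids. They were chosen by symbol alone: eukaryotic initiation factor genes (Eif1 to Eif6), elongation factor genes (Eef1 and Eef2), and synthetase genes named by an amino acid letter followed by ars, with Eprs. Of the 8251 genes that had a single symbol on the array, 71 met this rule, 49 of them named as factors and 22 as synthetases, on 93 probe sets of 12488. The rule also took in relatives that are no translation factors themselves, such as the eIF2 kinase genes, the 4E-binding protein genes and Eef1akmt1, a gene for a lysine methyltransferase of an elongation factor. After the filter on dim genes described below, 58 of the 71 remained among 4844 genes in all.

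Liver RNA was measured on 6 one-colour arrays, 1 for each of 3 genotypes at 2 circadian times. The groups were Clock mutant mice, Cry-deficient mice and wild-type mice on a C57BL/6 background, each at CT14 (14 h after the start of the subjective day, early in the subjective night) and CT02 (2 h, early in the subjective day). All were males aged 8 to 10 weeks. The Cry-deficient CT02 array was described as Cry1 and Cry2 double knockout and the CT14 array as Cry deficient only, and the sources used here give neither the Clock allele nor the mutants' strain background nor any pooling of animals. Each group being a single array, values have no replicate error and nothing was tested, and precision is limited by the small number of arrays.

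Initiation begins when eIF2 carries the initiator tRNA to the small ribosomal subunit, on which eIF3 serves as a scaffold, while the cap-binding eIF4 factors recruit and unwind the mRNA. eIF2B recharges eIF2 with GTP, a step that stress kinases block by phosphorylating eIF2, and 4E-binding proteins hold back the cap-binding protein until mTOR signalling releases it. Elongation factors then deliver charged tRNAs and move the ribosome along. In liver, translation is known to follow feeding and the circadian cycle, and synthetase genes are known targets of ATF4, a transcription factor made when eIF2 is phosphorylated.

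Intensities were scaled between arrays, and scaled values below 606 (the median of all scaled values, called the floor) were set to it before log2 ratios were taken, so that a fold against a value below the floor is a lower bound. The Clock mutant CT02 array was the dimmest, with a mean deposited intensity of 1637 against 2182 to 2486 on the others, and its 3' to 5' signal ratio for the Actb control was 2.68, against 0.84 to 1.70 elsewhere. For the Gapdh control its ratio was instead the lowest, 0.56 against 0.59 to 2.37 elsewhere. Among the 485 brightest genes the median log2 ratio was 0.24 when the Clock mutant was set against wild type at CT02, and -0.29 when its CT14 array was set against CT02. All 7 hepatocyte markers on the array were kept, with summed levels between 72722 and 96184 scaled units, whereas the 3 T cell and 3 cholangiocyte markers were below the floor on every array. Macrophage markers summed to 41347 and 53317 in the Cry-deficient mice at CT14 and CT02, against 30271 and 29443 for the Clock mutant, and wild type had 37665 and 39015. In bulk RNA, fewer cells of a type and less RNA per cell cannot be told apart. On their own probe sets, Cry1 read 4718 and 3845 on the Cry-deficient arrays at CT14 and CT02, against 2723 and 1833 in wild type, and Cry2 read 1344 and 1185 against 2256 and 1215. Clock read 2069 and 1640 in the Clock mutant against 1552 and 2430. The sources used here do not say whether these probes lie in the altered parts of the genes, and the readings are no check of the labels.

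Levels of the translation genes varied little across the 6 arrays. The median member spanned 1.59-fold between its lowest and highest array, against 1.77-fold for all kept genes, and 12 of 58 members spanned at least 2-fold, a size that 36.4% of all kept genes reached. Eif4a2, an RNA helicase of the cap-binding complex, had the narrowest span, at 1.12-fold. Its scaled levels were 17515 and 16028 in the Clock mutant at CT14 and CT02, 15686 and 15653 in the Cry-deficient mice and 15726 and 16190 in wild type. Eif4b had the widest span, at 8.24-fold, followed by Hars at 3.56-fold and Eif2b5 at 3.54-fold.

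**Figure D1:**
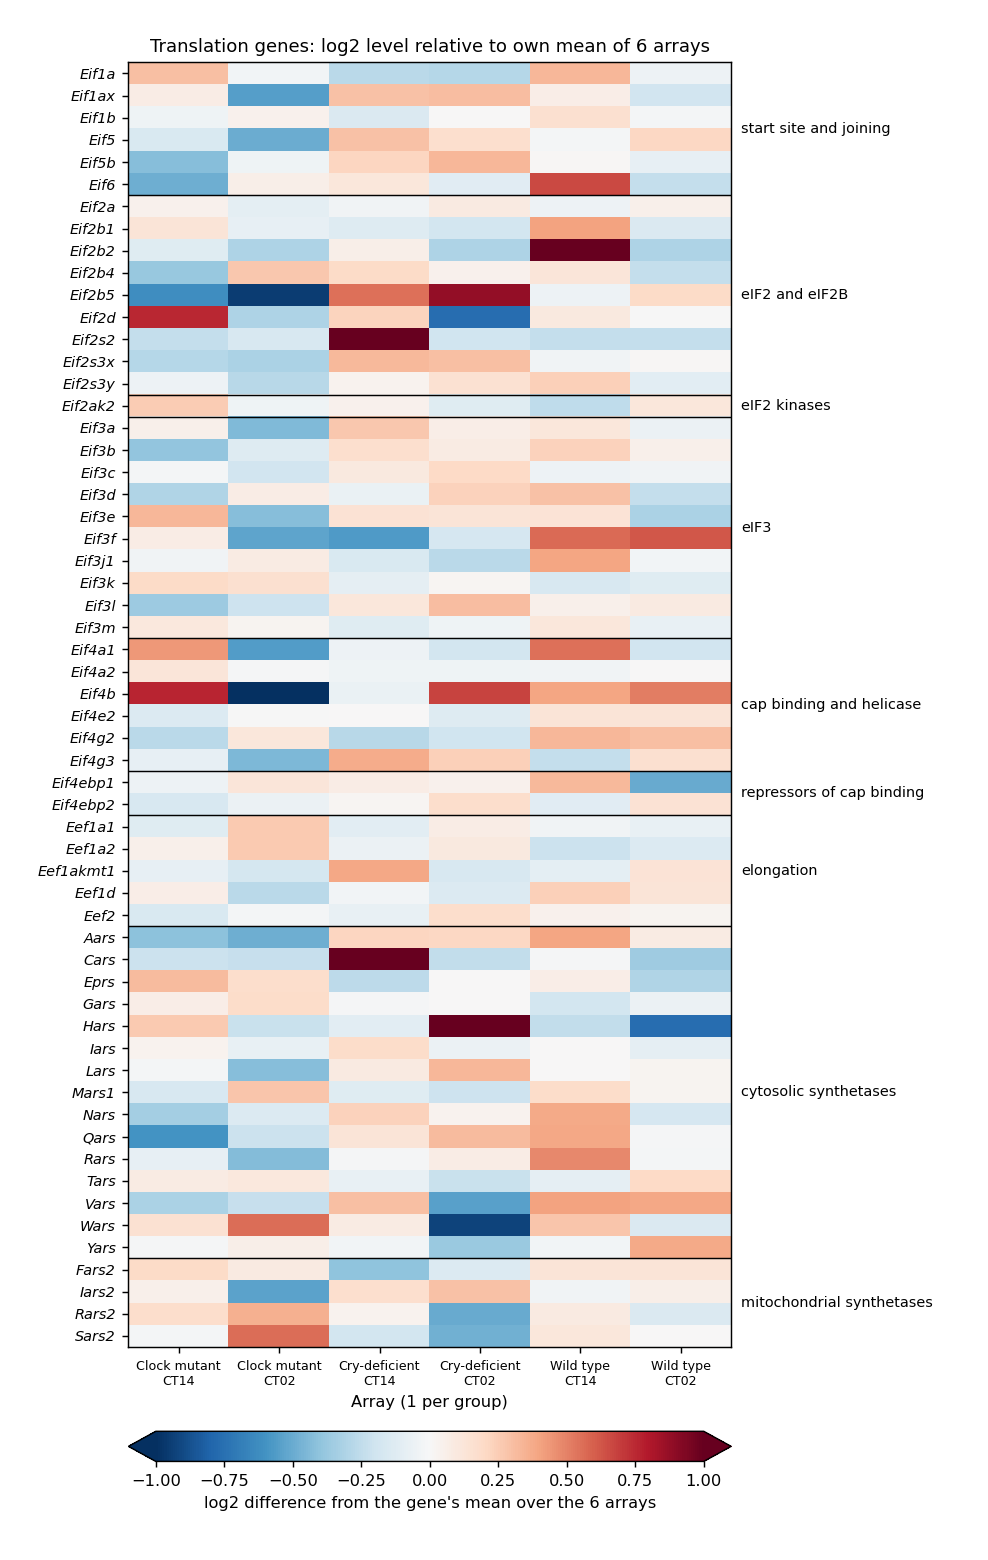
Each row is 1 of the 58 translation genes kept and each column 1 array. Colour gives the log2 level minus the gene's own mean over the 6 arrays, and colours stop at 1 in either direction. Most cells are pale, and the deep colours lie in Eif4b (761 scaled units on the Clock mutant CT02 array), Hars (3204 on the Cry-deficient CT02 array) and a few others.

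The array on which a gene read highest was not spread evenly. For 20 of the 58 members (34.5%) it was wild type CT14, which held the highest value of 14.4% of all kept genes, and for 3 members it was wild type CT02, against 11.7%. The Clock mutant CT02 array held the highest value of 8 members (13.8%) and of 25.6% of all kept genes. It also held the lowest value of 18 of the 56 members whose lowest value was not a tie at the floor, against 25.7% of such genes. The shares of members were 13.8% for Clock mutant CT14, 13.8% for Cry-deficient CT14 and 19.0% for Cry-deficient CT02, against 17.5%, 12.2% and 18.7% of all kept genes. Members highest in wild type at CT14 included Eif6, Eif2b1, Eif4a1, Eif4ebp1, Aars, Nars, Qars and Rars. Between 18 and 22 members were highest there under the other settings tried, for which the share of all genes was not counted. Eif2b2, counted for wild type CT14, and Eif2s2, counted for Cry-deficient CT14, were each kept only through that array. For such genes, 4.23% of all kept genes, the filter favoured the highest array.

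**Figure D2:**
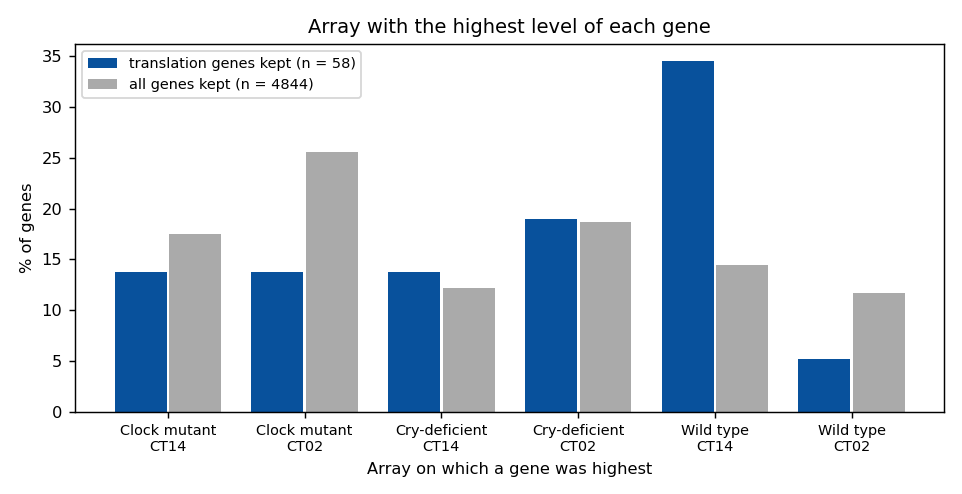
Bars give the share of genes, in %, that read highest on each of the 6 arrays, for the 58 translation genes kept (blue) and all 4844 genes kept (grey). The blue bar stands at 34.5% for wild type CT14, where the grey one stands at 14.4%. Eif2b2, in the blue bar of wild type CT14, and Eif2s2, in that of Cry-deficient CT14, were each kept only through that array.

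Within each genotype the later time was set against the earlier one. In the Clock mutant, 32 of 58 members were higher at CT14 by any size (48.9% of all genes were), with a median log2 ratio of 0.06. Of the members 2 were at least 2-fold higher and 0 lower, against 4.31% and 3.43% of all genes. On the Cry-deficient arrays 32 members were higher (48.5% of all genes), a count that was 27 with quantile normalization, and the median was 0.01, or -0.01 with quantile normalization. There 3 members were at least 2-fold higher and 1 lower, against 3.53% and 2.02% of all genes. In wild type 36 members were higher (48.1% of all genes), with a median of 0.10, and 1 was at least 2-fold higher and 0 lower, against 2.48% and 2.09% of all genes. The median of all kept genes was 0.00 in each of these comparisons.

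Each mutant was also compared with wild type at each time. In the Clock mutant at CT14, 21 of 58 members were above wild type (48.3% of all genes), with a median of -0.12, and 0 were at least 2-fold higher and 2 lower, against 4.13% and 5.64% of all genes. At CT02, 24 were above wild type (49.3% of all genes), with a median of -0.10, and 0 were at least 2-fold higher and 3 lower, against 4.25% and 7.51%. On the Cry-deficient arrays at CT14, 27 were above wild type (47.2% of all genes), with a median of -0.06, and 2 were at least 2-fold higher and 1 lower, against 2.46% and 2.27%. At CT02, 37 were above wild type (50.0% of all genes), with a median of 0.05, and 1 was at least 2-fold higher and 0 lower, against 2.73% and 3.96%. In all, 10 of the 58 members (17.2%) were at least 2-fold apart in some comparison, against 27.3% of all kept genes. Time ratios of opposite sign and at least 1 log2 unit apart in a pair of genotypes were found for 6 members (10.3%), against 15.8% of all kept genes. Eif2b2 and Eif2s2 count among the members only through their brightest array, as their means without it (448 and 495) are below the floor, and this holds for 4.23% of all kept genes. Both mutants were set against the same wild-type arrays, which also gave the wild-type time comparison, so these values are not independent.

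**Figure D3:**
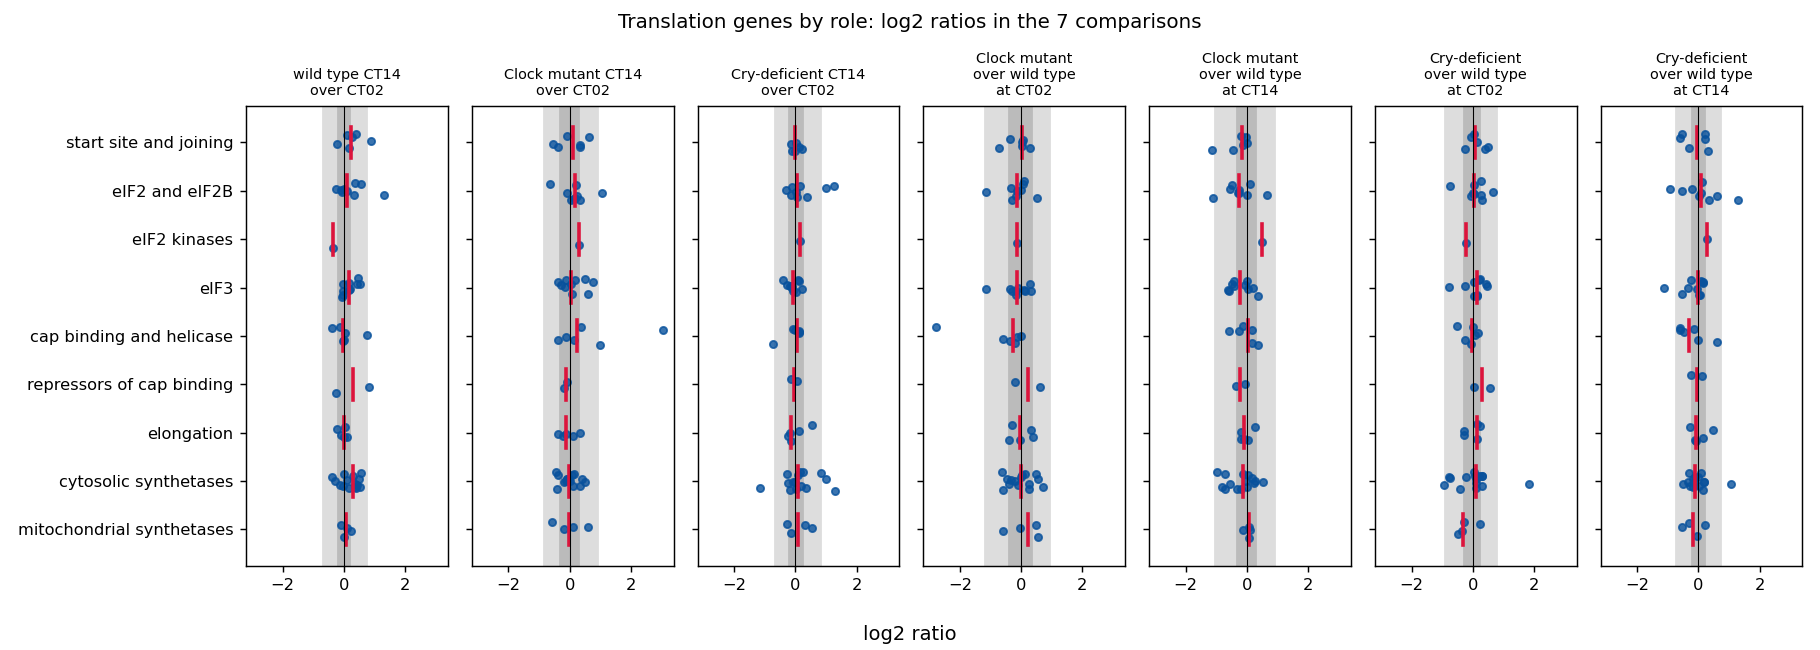
Each panel is 1 of the 7 comparisons, and each point 1 translation gene, placed by its log2 ratio (horizontal axis) and its role (rows). Red bars are medians of a role, and the grey bands hold the middle 50% (dark) and 90% (light) of all 4844 kept genes. Most points lie within the light band, and the far points are Eif4b at 3.04 (Clock mutant, CT14 over CT02) and -2.79 (Clock mutant relative to wild type, CT02) and Hars at 1.83 (Cry-deficient over wild type at CT02).

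Among the 6 kept genes for start site selection and subunit joining, Eif6 differed most. Its product keeps the large ribosomal subunit from joining too early. Scaled levels of Eif6 were 1058 and 1543 in the Clock mutant at CT14 and CT02, 1599 and 1371 in the Cry-deficient mice and 2342 and 1257 in wild type. It was highest in wild type at CT14 and lowest in the Clock mutant at CT14, a 2.21-fold difference (log2 ratio -1.15), and CT14 over CT02 gave log2 ratios of -0.54 in the Clock mutant, 0.22 in the Cry-deficient mice and 0.90 in wild type.

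Eif1a, for the factor that helps scan for the start codon, read 5968 and 4761 in the Clock mutant at CT14 and CT02, 4021 and 3980 in the Cry-deficient mice and 6106 and 4695 in wild type. It was higher at CT14 in the Clock mutant (log2 ratio 0.33) and in wild type (0.38) and level on the Cry-deficient arrays (0.01). A second probe set of Eif1a gave -1.25 on the Cry-deficient arrays, with 727 at CT14 and 1730 at CT02. Eif1ax, its X-linked counterpart, gave 0.62, -0.01 and 0.26 in the Clock mutant, the Cry-deficient mice and wild type, and as the genes are close in sequence a probe set of either may read both. A second Eif1ax probe set read 807 and below the floor (377) in the Clock mutant at CT14 and CT02, 1461 and 1689 in the Cry-deficient mice and 1251 and 1533 in wild type. It gave the opposite sign in wild type (-0.29) and was at least 2.53-fold lower in the Clock mutant than in wild type at CT02, where the first gave a log2 ratio of -0.36. Eif5, whose product triggers GTP hydrolysis by eIF2 at the start codon, read 6807 and 5378 in the Clock mutant at CT14 and CT02, 9279 and 8510 in the Cry-deficient mice and 7485 and 8769 in wild type, with a log2 ratio of -0.71 for Clock mutant relative to wild type at CT02. Eif1b and Eif5b stayed within 1.23-fold and 1.69-fold over the 6 arrays. Eif5a, for a factor that eases stalled elongation, was not kept.

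The eIF2 and eIF2B group, with 9 kept genes, held 4 of the 10 members that were at least 2-fold apart in any comparison. That is 44.4% of so small a group, against 27.3% of all kept genes, and 2 of the 4 are the genes kept through 1 array. Eif2b2, a subunit of the exchange factor eIF2B, read 693 in the Clock mutant at CT14 and below the floor at CT02, 782 and below the floor (543) in the Cry-deficient mice, and 1497 and below the floor (289) in wild type. Its wild-type CT14 level, at least 2.47-fold over wild type CT02, is the array through which the gene was kept (its mean is 623 with it and 448 without it), so a high value there was a condition for its presence. It is also the gene behind the single 2-fold count in the wild-type time comparison. The Clock mutant at CT14 was 2.16-fold lower than wild type on that same array. Eif2b5, the catalytic subunit of eIF2B, read 1005 and 800 in the Clock mutant at CT14 and CT02, 2267 and 2836 in the Cry-deficient mice and 1487 and 1765 in wild type. It was lowest on the Clock mutant arrays and highest on the Cry-deficient arrays. In the Clock mutant it was 2.21-fold lower than in wild type at CT02 (log2 ratio -1.14, on the dimmest array) and lower at CT14 (-0.56). How many of all kept genes are ordered by genotype in this way was not counted, for this gene or those named below. A second probe set of Eif2b5 read 810 in the Clock mutant at CT14, below the floor (604) at CT02, 1422 and 1320 in the Cry-deficient mice and 1602 and 1168 in wild type. On it the Clock mutant was again lowest, while the Cry-deficient and wild-type arrays overlapped.

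Eif2d, for a protein that can deliver tRNA to the ribosome outside the eIF2 route, read 1852 and 889 in the Clock mutant at CT14 and CT02, 1284 and 648 in the Cry-deficient mice and 1172 and 1093 in wild type. Both mutants were higher at CT14, 2.08-fold in the Clock mutant (log2 ratio 1.06) and by a log2 ratio of 0.99 in the Cry-deficient mice, where wild type gave 0.10. The Clock mutant log2 ratio stayed past 2-fold in 5 of 7 settings, with 0.98 after lowess correction and 0.53 as a mean over probe sets, since a second Eif2d probe set was below the floor on every array. Eif2s2, the beta subunit of eIF2, reached 1492 on the Cry-deficient CT14 array and 623 at CT02, read below the floor (473) in the Clock mutant at CT14 and 639 at CT02, and was below the floor in wild type (365 and 374). It was 2.40-fold higher at CT14 in the Cry-deficient mice, and at least 2.46-fold higher there than in wild type, but was kept only through that Cry-deficient CT14 array (mean 661 with it and 495 without it), so both counts it enters were favoured by the filter. A second, dimmer Eif2s2 probe set read 1060 and 1112 in the Cry-deficient mice at CT14 and CT02, and was below the floor on the other 4 arrays. Both probe sets thus put the Cry-deficient CT14 array above wild type, but the second did not show the difference between times.

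Levels of other members of the group differed less. Eif2s3x, the X-linked gamma subunit of eIF2, read 7307 and 7127 in the Clock mutant at CT14 and CT02, 11121 and 10938 in the Cry-deficient mice and 8671 and 8961 in wild type. The Cry-deficient arrays were above wild type by log2 ratios of 0.36 and 0.29 at CT14 and CT02, and the Clock mutant arrays below it by -0.25 and -0.33. Its Y-linked counterpart Eif2s3y, on a probe set with a letter mark that may read both copies, spanned 1.43-fold. Eif2b1 was 0.55 log2 units higher at CT14 in wild type, and Eif2a spanned 1.14-fold. Of the 4 eIF2 kinase genes Eif2ak2, the double-stranded RNA-activated kinase, was kept, between 636 and 903 on all arrays, and Eif2ak1, Eif2ak3 and Eif2ak4 were too dim.

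All 10 measured eIF3 subunit genes were kept. Of these 10, Eif3f was the 1 gene at least 2-fold apart in some comparison, against 27.3% of all kept genes. It read 1455 and 959 in the Clock mutant at CT14 and CT02, 934 and 1234 in the Cry-deficient mice and 2048 and 2128 in wild type. Both wild-type arrays stood above all 4 mutant arrays, an order whose share among all kept genes was not counted. The Clock mutant was lower than wild type by log2 ratios of -0.49 at CT14 and -1.15 at CT02, and the Cry-deficient mice by -1.13 and -0.79. The largest of these is 2.22-fold, on the dim Clock mutant CT02 array, whose part in it was not tested. The direction was the same at both times in both mutants, and the comparisons share their wild-type arrays. Eif3m, Eif3k and Eif3c spanned 1.17-fold, 1.28-fold and 1.31-fold. Eif3l read 9699 and 10785 in the Clock mutant at CT14 and CT02, 13507 and 15433 in the Cry-deficient mice and 12926 and 13261 in wild type, again with the Clock mutant lowest and the Cry-deficient mice highest. Eif3e was higher at CT14 by a log2 ratio of 0.75 in the Clock mutant and 0.46 in wild type, and by 0.01 in the Cry-deficient mice. Eif3a was higher at CT14 in all 3 genotypes, by 0.49, 0.20 and 0.17 in the Clock mutant, the Cry-deficient mice and wild type.

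Among the 6 kept genes for cap binding and mRNA unwinding, Eif4b stood apart. Its product stimulates the helicase eIF4A and is a target of growth factor and mTOR signalling. On probe set 100557_g_at, which represents the gene, the scaled levels of Eif4b were 6274 and 761 in the Clock mutant at CT14 and CT02, 3536 and 5911 in the Cry-deficient mice and 4848 and 5275 in wild type. The Clock mutant CT02 array alone was low, near the floor, and the other 5 arrays lay between 3536 and 6274. CT14 over CT02 was 8.24-fold in the Clock mutant (log2 ratio 3.04), against log2 ratios of -0.74 in the Cry-deficient mice and -0.12 in wild type, and the Clock mutant was 6.93-fold lower than wild type at CT02 and 0.37 higher on the log2 scale at CT14.

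The other Eif4b probe sets did not show a difference of that size. Probe set 161342_r_at read 1129 and 737 in the Clock mutant at CT14 and CT02, 860 and 1327 in the Cry-deficient mice and 767 and 1034 in wild type. Its Clock mutant CT02 value was also the lowest of the 6, but by little, with log2 ratios of 0.62 for CT14 over CT02 in the Clock mutant and -0.49 for Clock mutant relative to wild type at CT02. The remaining probe sets, 100556_at and 100558_at, were below the floor on every array, although 100556_at carries the same accession as 100557_g_at. With only those probe sets whose names carry no letter mark Eif4b was not kept at all, and averaged over its 4 probe sets the log2 ratios were 0.91 and -0.82. The large Eif4b difference therefore rests on 1 probe set on the dimmest array, whose Actb 3' to 5' ratio of 2.68 was the highest of the 6. Its Gapdh ratio of 0.56 was the lowest of the 6, so the 2 controls differ. The part of RNA quality in the Eif4b difference was not tested.

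**Figure D4:**
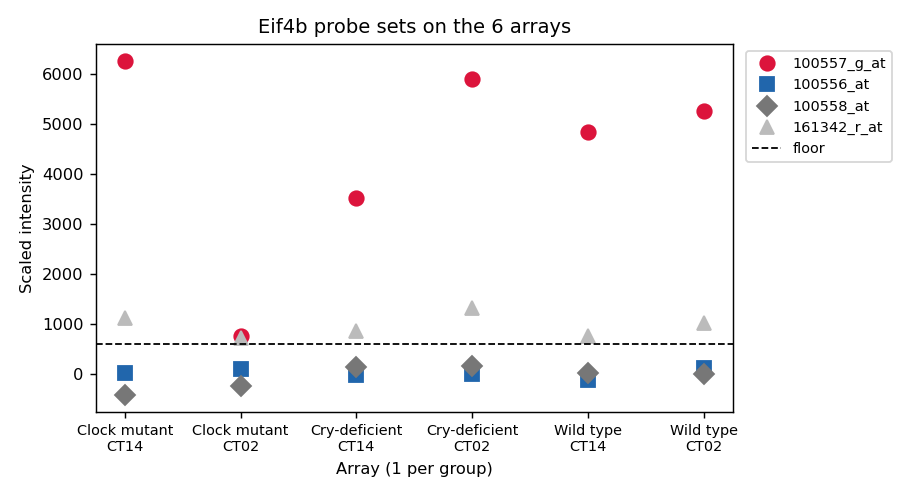
Points give the scaled intensity of the 4 Eif4b probe sets (symbols) on each array (horizontal axis), and the dashed line is the floor of 606. Probe set 100557_g_at reads 761 on the Clock mutant CT02 array and 3536 or more on the others, while 161342_r_at stays between 737 and 1327 and the other probe sets lie below the floor.

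Eif4a1, the main helicase gene of the complex, read 8805 and 4432 in the Clock mutant at CT14 and CT02, 6306 and 5746 in the Cry-deficient mice and 9550 and 5726 in wild type. It was higher at CT14 in all 3 genotypes, by log2 ratios of 0.99, 0.13 and 0.74, on a probe set with a letter mark, whereas its paralog Eif4a2 gave 0.13, 0.00 and -0.04. The paralogs are close in sequence, so a probe set of either may read some RNA of the other. Eif4g2, for a relative of the scaffold eIF4G, was lower in the Clock mutant and in the Cry-deficient mice than in wild type at CT14, by log2 ratios of -0.60 and -0.61, and at CT02, by -0.19 and -0.50. Eif4e2 spanned 1.20-fold. The gene for the cap-binding protein itself, Eif4e, and Eif4h were not kept.

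Of the 3 genes for repressors of cap binding, 2 were kept. Eif4ebp1, which encodes a 4E-binding protein, read 1869 and 2102 in the Clock mutant at CT14 and CT02, 2043 and 1989 in the Cry-deficient mice and 2419 and 1362 in wild type. Wild type held both the highest and the lowest value, with a log2 ratio of 0.83 for CT14 over CT02, against -0.17 in the Clock mutant and 0.04 in the Cry-deficient mice. Eif4ebp2 spanned 1.26-fold.

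The 5 kept elongation genes had a median span of 1.39-fold, the lowest of the roles with more than 1 kept member. Of these 5 genes 0 were 2-fold apart in any comparison, against 27.3% of all kept genes. Eef1a1, whose product brings charged tRNAs to the ribosome, read 12275 and 16028 in the Clock mutant at CT14 and CT02, 12431 and 14089 in the Cry-deficient mice and 13087 and 12726 in wild type. Eef2, for the factor that moves the ribosome by a codon, read 16231 and 17723 in the Clock mutant at CT14 and CT02, 17129 and 20365 in the Cry-deficient mice and 18545 and 18342 in wild type. Both were lower at CT14 in the mutants, by log2 ratios of -0.38 and -0.18 for Eef1a1 and -0.13 and -0.25 for Eef2, and level in wild type (0.04 and 0.02). The 485 brightest genes had medians of -0.29 and -0.16 in those mutant comparisons. Eef1a2, a paralog of Eef1a1 close enough in sequence to share reads of a probe set, spanned 1.39-fold and gave -0.22, -0.15 and -0.08 in the Clock mutant, the Cry-deficient mice and wild type. Eef1d, for an exchange factor subunit, spanned 1.43-fold, and Eef1akmt1 1.48-fold. Eef1b2, Eef1g and Eef2k, the kinase that switches Eef2 off, were not kept.

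Of the cytosolic synthetase genes 15 were kept and Kars and Sars were not. In wild type 11 of the 15 were higher at CT14 (48.1% of all genes were), with a median log2 ratio of 0.31, against 0.00 for all genes. There 0 were 2-fold apart, where 2.48% of all genes were higher and 2.09% lower by that much. The count was 7 of 15 in the Clock mutant (48.9% of all genes, median -0.02) and 9 of 15 in the Cry-deficient mice (48.5% of all genes, median 0.08). In the Clock mutant at CT14, 6 of 15 were above wild type (48.3% of all genes, median -0.13). The wild-type count stayed at 11 under every setting tried.

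Nars, for asparaginyl-tRNA synthetase, read 4296 and 4937 in the Clock mutant at CT14 and CT02, 6374 and 5583 in the Cry-deficient mice and 7075 and 4833 in wild type, with a wild-type log2 ratio of 0.55 for CT14 over CT02. Rars (arginine), Qars (glutamine) and Aars (alanine) gave 0.50, 0.39 and 0.31 in the same comparison. At CT14 the Clock mutant stood below wild type for all 4, by log2 ratios of -0.72 for Nars, -0.56 for Rars, -0.99 for Qars and -0.80 for Aars. Aars read 4241 and 4002 in the Clock mutant at CT14 and CT02, 6543 and 6491 in the Cry-deficient mice and 7400 and 5964 in wild type, so that the Clock mutant arrays were lowest at both times. Mars1 (methionine) read 3361 and 4558 in the Clock mutant at CT14 and CT02, 3448 and 3261 in the Cry-deficient mice and 4261 and 3818 in wild type. Iars (isoleucine) and Gars (glycine) were steadier, with spans of 1.21-fold and 1.29-fold, and Tars (threonine) and Yars (tyrosine) were lower at CT14 in wild type, by -0.29 and -0.40.

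Of the 19 kept synthetase genes Hars, Cars and Wars were at least 2-fold apart in some comparison, against 27.3% of all kept genes. All 3 involved the Cry-deficient arrays. Hars, for histidyl-tRNA synthetase, read 1836 and 1310 in the Clock mutant at CT14 and CT02, 1421 and 3204 in the Cry-deficient mice and 1288 and 900 in wild type. The Cry-deficient CT02 value stood above all others, 3.56-fold over wild type at CT02, and CT14 was 2.26-fold lower than CT02 in the Cry-deficient mice while it was higher in the Clock mutant (log2 ratio 0.49) and in wild type (0.52). On that array 10 of 11 macrophage markers were above wild type at CT02 (50.0% of all genes were), 3 of them at least 2-fold (2.73% of all genes). Their summed level was 53317 against 39015, while C1qa was lower (log2 ratio -1.66) and none of the 11 was below the floor on every array. This was not particular to macrophages: all 4 kept B cell, all 3 kept endothelial and 6 of 7 hepatocyte markers were also above wild type there. The 5 kept stellate markers were all below it. The same array had the highest 3' to 5' ratio for the Gapdh control, 2.37 against 0.56 to 0.72 elsewhere. The part of cell content or RNA quality in the Hars level was not tested.

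Cars, for cysteinyl-tRNA synthetase, read 2031 on the Cry-deficient CT14 array and between 760 and 966 on the other 5. It was 2.47-fold higher at CT14 than at CT02 in the Cry-deficient mice and 2.10-fold higher there than in wild type at CT14. Wars, for tryptophanyl-tRNA synthetase, gave unlike results on its probe sets. On 98606_s_at it read 2344 and 3111 in the Clock mutant at CT14 and CT02, 2235 and 1112 in the Cry-deficient mice and 2557 and 1914 in wild type, a 2.01-fold difference between the times on the Cry-deficient arrays. On 98605_at the Cry-deficient values were 1763 and 2229 (log2 ratio -0.34), so the direction in the Cry-deficient mice depends on the probe set. Vars (valine) fell short of 2-fold, with 2482 and 1381 in the Cry-deficient mice at CT14 and CT02 and 2659 and 2641 in wild type. Its Cry-deficient arrays were 1.8-fold apart, and at CT02 it was 1.91-fold below wild type. In wild type both Wars probe sets were higher at CT14, with 3086 and 1537 on 98605_at.

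**Figure D5:**
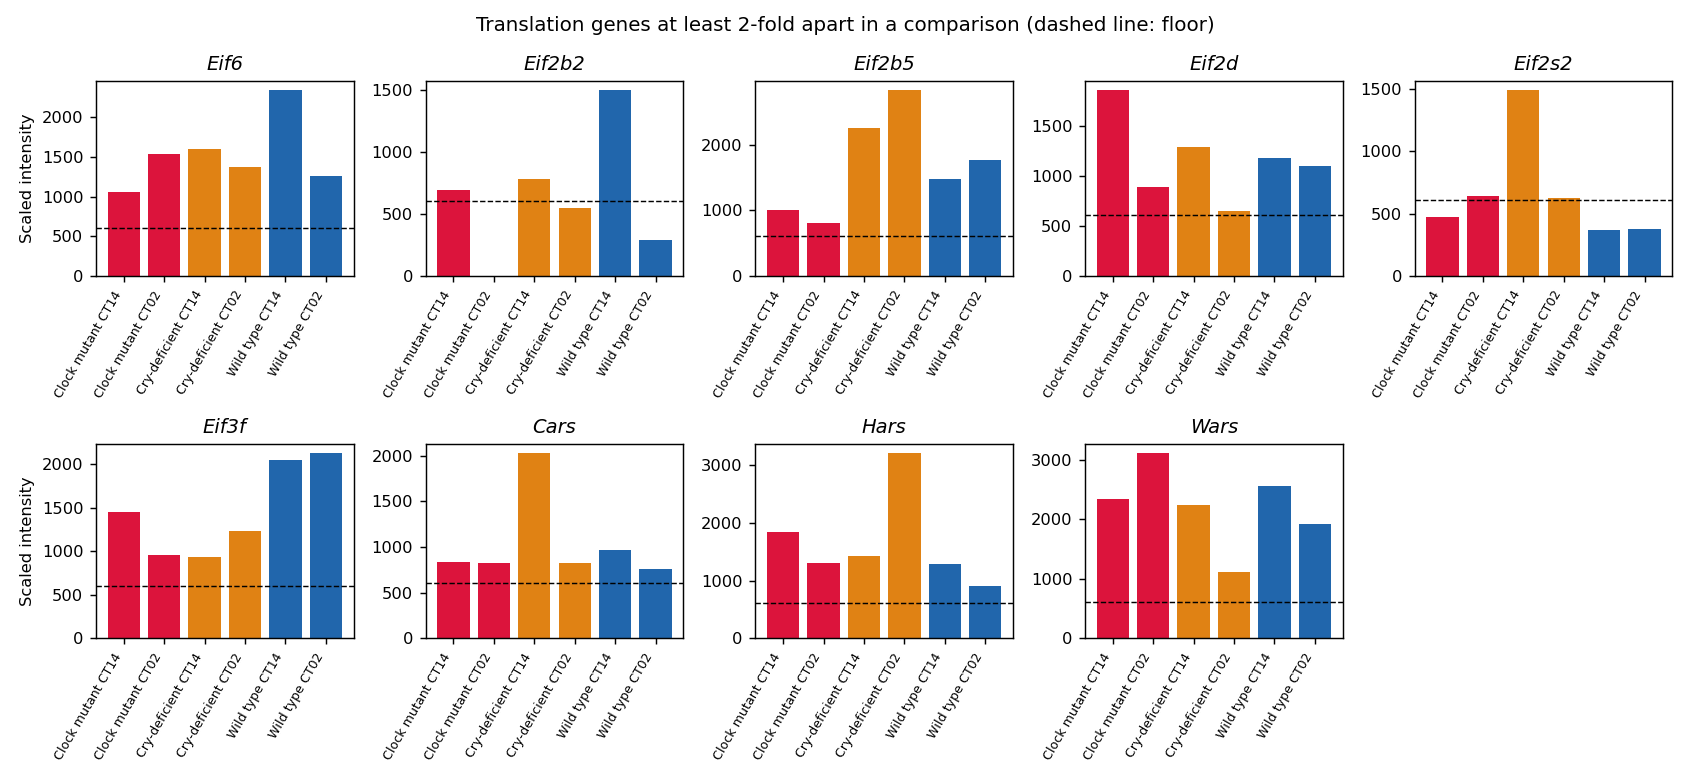
Bars give the scaled intensity of the 9 translation genes other than Eif4b that were at least 2-fold apart in a comparison, on each array (red Clock mutant, orange Cry-deficient, blue wild type), and the dashed line is the floor of 606. Values below 0 are drawn as 0. Eif3f is highest on both wild-type arrays, Eif2b5 is lowest on both Clock mutant arrays, and Cars and Hars each have 1 high Cry-deficient array, at 2031 and 3204.

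The 4 kept genes whose symbols end in 2 encode mitochondrial synthetases. They had median log2 ratios of -0.04 in the Clock mutant, 0.08 in the Cry-deficient mice and 0.05 in wild type for CT14 over CT02. Sars2, the mitochondrial serine enzyme, spanned 2.06-fold, from 993 on the Cry-deficient CT02 array to 2045 on the Clock mutant CT02 array. A second Sars2 probe set also read highest on the Clock mutant CT02 array (1687). Iars2 read 2933 and 1952 in the Clock mutant at CT14 and CT02, 3166 and 3469 in the Cry-deficient mice and 2749 and 2935 in wild type. Rars2 read 2448 and 2774 in the Clock mutant at CT14 and CT02, 2221 and 1535 in the Cry-deficient mice and 2312 and 1962 in wild type. Fars2 was lower in the Cry-deficient mice than in wild type at CT14 and CT02, by log2 ratios of -0.53 and -0.27.

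Promoter sequences of RefSeq (GRCm38.p6) were found for 56 of the 71 genes, 15 of them synthetase genes, and were searched on both strands from 250 bases before to 50 after each listed start site. The motif TGATGCAA, a form of the element that ATF4 binds with a C/EBP partner, was in 4 of the 15 synthetase promoters (Aars, Iars, Tars and Yars) and in no other of the 56, against 1.03% of 27025 genes. The looser TGATGNAA, which includes it, was in 7 of the 56 and in 4.51% of all genes. The E-box CACGTG, to which the pair of Clock and Arntl proteins binds, was in 13 of the 56, against 8.09% of all genes. It stood in promoters of genes that varied (Eif3f and Eif4a1) and of genes that did not (Eef2 and Eif3k). Iars and Tars held it beside TGATGCAA with a motif after the start site, and Aars held both motifs before its start site. The stretches that hold them before the start site are, 5′ to 3′ on the gene's strand, with the motifs in capitals (TTGCATCA is TGATGCAA read on the other strand), so that the genes with a shared motif can be set beside their levels:
Aars, chr8:111033676-111033757, plus strand: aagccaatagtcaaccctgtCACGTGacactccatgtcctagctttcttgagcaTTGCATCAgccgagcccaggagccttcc
Tars, chr15:11399659-11399713, minus strand: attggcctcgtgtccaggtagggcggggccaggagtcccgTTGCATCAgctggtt
Eif3f, chr7:108934320-108934379, plus strand: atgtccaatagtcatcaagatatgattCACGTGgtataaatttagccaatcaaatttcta
Eif4a1, chr11:69672580-69672639, minus strand: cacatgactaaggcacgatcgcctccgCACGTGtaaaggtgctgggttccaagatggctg
Eef2, chr10:81176561-81176620, plus strand: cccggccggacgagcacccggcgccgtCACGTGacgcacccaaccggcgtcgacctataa

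In the Aars promoter the E-box begins 146 bases and the second motif 112 bases before the start site, and in Tars the motif begins 15 bases before it. The E-box begins 68 bases before the start site of Eif3f, 189 before that of Eif4a1 and 43 before that of Eef2. The 4 synthetase genes with TGATGCAA are Aars, Iars, Tars and Yars. In that order CT14 over CT02 gave log2 ratios of 0.08, 0.11, -0.02 and -0.07 in the Clock mutant. In the Cry-deficient mice the ratios were 0.01, 0.24, 0.15 and 0.35, and in wild type 0.31, 0.10, -0.29 and -0.40. Signs were mixed in the Clock mutant and in wild type. All 4 were above 0 in the Cry-deficient mice, Aars by only 0.01, against 48.5% of all genes, and 4 genes are few for such a share. Among the E-box genes printed, the same comparison gave 0.60, -0.40 and -0.05 for Eif3f in the Clock mutant, the Cry-deficient mice and wild type, 0.99, 0.13 and 0.74 for Eif4a1 and -0.13, -0.25 and 0.02 for Eef2. A match describes letters only, and binding was not measured.

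Genes that act beside the translation factors were read from lists chosen by function. Of 23 genes of the amino acid and eIF2 phosphorylation response, 14 were kept. Atf4 was higher at CT14 in all 3 genotypes, with 9207 and 6409 in the Clock mutant at CT14 and CT02, 9852 and 6954 in the Cry-deficient mice and 9671 and 6218 in wild type, log2 ratios of 0.52, 0.50 and 0.64. Asns, an ATF4 target gene that encodes asparagine synthetase, read below the floor (547) and 3207 in the Clock mutant at CT14 and CT02, 2908 and 797 in the Cry-deficient mice and 1781 and 1823 in wild type. The list's median for CT14 over CT02 was -0.15 in the Clock mutant, 0.07 in the Cry-deficient mice and 0.19 in wild type, with 5, 8 and 10 of the 14 higher, against 48.9%, 48.5% and 48.1% of all genes. Others of these 14 at least 2-fold apart were Ddit3, whose 3092 in wild type at CT14 was its only level above the floor besides 924 in the Cry-deficient mice at CT02, Atf5, whose 10730 in wild type at CT02 stood above 3759 to 5363 elsewhere, and Mthfd2, Slc38a2 and Cebpb. Without its wild-type CT14 array the mean of Ddit3 is below the floor, so a high value there was a condition for its presence. Ddit3 is also among the 10 genes of the list that were higher at CT14 in wild type. Ppp1r15a, from a separate list of eIF2 phosphatase genes, directs a phosphatase to eIF2. It read below the floor (473) and 1034 in the Clock mutant at CT14 and CT02, 1604 and 643 in the Cry-deficient mice and 915 and 643 in wild type, so that, as for Asns, CT14 was lower in the Clock mutant and higher in the Cry-deficient mice.

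The 9 kept genes of the mTOR pathway list, which acts on Eif4b and the 4E-binding proteins, were mostly low on the Clock mutant CT02 array. Against wild type at CT02, 8 of 9 were lower there (2394 of all 4844 genes were), with a median log2 ratio of -0.55, and 4 were at least 2-fold lower, against 7.51% of all genes, the highest such share of the 7 comparisons. In the Clock mutant 8 of 9 were higher at CT14 than at CT02 (48.9% of all genes), with a median of 0.77 and 4 at least 2-fold, against 4.31%. The list mixes genes that promote mTOR signalling with genes that restrain it, such as Tsc1 and Tsc2, both among the 8 each time. Both medians, -0.55 and 0.77, are the values of Tsc2 and give no direction of signalling. Akt2, a kinase of insulin signalling, read 2531 in the Clock mutant at CT14 and below the floor (276) at CT02, against 4084 and 2778 in wild type. Akt1 read 1570 and below the floor (602) in the Clock mutant, against 2321 and 2131 in wild type, and Mknk2, for a kinase of the cap-binding protein, read 2983 and 1416 against 4299 and 3589. Mlst8, for an mTOR complex subunit, read 1325 and below the floor (261) against 868 and 1827. Mtor itself did not follow, with 2546 and 3122 in the Clock mutant at CT14 and CT02 and 743 and 2586 in wild type. In the Cry-deficient mice at CT14 and CT02, Akt2 read 3465 and 1695, Akt1 2276 and 1434, Mlst8 1419 and 796, and Mknk2 4994 and 4563. At CT02 the first 3 were thus also below wild type, and Mknk2 was above it. Of the 9 list genes 6 were below wild type there, with a median log2 ratio of -0.07, and 1 was at least 2-fold lower (3.96% of all genes). The Clock mutant CT02 values come from the same dim array as that of Eif4b, and the part of that array's quality was not tested.

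Of the 4 kept release and recycling genes 1, Abce1, was 2-fold apart in some comparison, against 27.3% of all kept genes. Abce1, for the factor that splits spent ribosomes, read 2913 and 1981 in the Clock mutant at CT14 and CT02, 3797 and 3611 in the Cry-deficient mice and 4877 and 4409 in wild type. Both Clock mutant values, the CT02 one from the dimmest array, lay below all others, an order whose share among all kept genes was not counted. Scaffold genes of the multisynthetase complex, Aimp1 and Aimp2, were higher at CT14 in wild type by log2 ratios of 0.35 and 0.59. The mitochondrial elongation factor gene Tufm read 7332 and 3443 in the Cry-deficient mice at CT14 and CT02, against 7384 and 7423 in wild type. Its Cry-deficient CT02 level was thus low by a log2 ratio of -1.11, on the array with the highest Gapdh 3' to 5' ratio (2.37). The part of RNA quality in the Tufm level was not tested. Poly(A)-binding genes (4 kept) had 0 members 2-fold apart in any comparison, against 27.3% of all kept genes, though 4 genes are few for such a share. Of the hypusine enzymes, which modify Eif5a, Dohh was kept and was below wild type at CT14 by -0.79 in the Clock mutant and -0.76 in the Cry-deficient mice. Farsb, the kept subunit gene of the phenylalanine enzyme, stayed within 0.38 log2 units in all 7 comparisons.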

How the data were processed

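Each deposited intensity is a whole number for a probe set on an array, linear in scale and in places below 0, as the values show. Its software, background step and normalization: not given in the sources used here. Titles gave each array its group. Arrays were scaled by their median ratio to the 6-array geometric mean, over 6065 bright probe sets (log2 offsets between -0.43 and 0.20). The floor was the median of all scaled values, 606. Of the probe sets 10833 had 1 gene symbol in the platform annotation and were used, 396 had several and 1237 had none. The probe set with the highest mean stood for a gene, and genes with a mean at or above the floor were kept. All 71 symbols matched RefSeq by gene number.

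Log2 ratios were described without a test, since each group held 1 array. An additive fit with genotype as a block would leave residual degrees of freedom for a mean effect of time, but was not run, as it counts unlike time effects of the genotypes as error. Genes at least 2-fold apart were counted. The rule for named genes took all Eif4b probe sets, members and related genes at least 2-fold apart, the 4 members of highest mean level in each role, and members whose probe sets differed by over 1 log2 unit. Other genes named were chosen after their values were seen, as were the promoters printed. The members and lists were chosen with earlier results of these data known. Alternatives were the deposited values, quantile normalization, lowess correction (span 0.3), the 25th percentile as floor, keeping all dim genes, averaging a gene's probe sets and a 3-fold threshold. Added after seeing the data were probe sets without a letter mark, scaling without the Clock mutant CT02 or the Cry-deficient CT02 array, and the counts by direction and by highest array under all settings. Python 3.11.15, pandas 2.3.3 and statsmodels 0.14.6 were used, and the procedure was tested on simulated arrays.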

Additional observations from a re-analysis of the deposited data

Results flagged for a closer look

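The time difference went opposite ways in a pair of genotypes, by at least 1 log2 unit in all and above the floor on all 4 arrays, for 6 genes (10.3% of those kept, against 15.8% of all kept genes). These differences were not tested, since each group held 1 array. For the Clock mutant against wild type, the log2 ratio of CT14 over CT02 differed by 3.16 for Eif4b, -1.44 for Eif6 and -1.01 for Eif2b4, a subunit of eIF2B. For the Cry-deficient mice against wild type it differed by -1.69 for Hars. For the Cry-deficient mice against the Clock mutant it differed by -3.78 for Eif4b, -1.66 for Hars, 1.42 for Wars and -1.0 for Eif3f. The Eif4b values rest on 1 probe set, and Wars turned its sign in the Cry-deficient mice on another probe set (log2 ratio -0.34).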

How the results depend on the processing

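All 59 medians recomputed stayed within 0.1 log2 units of those reported, the deposited values being taken relative to the median of all genes, which then lay at 0.45 and -0.52 in the comparisons CT14 over CT02 in the Clock mutant and Clock mutant over wild type at CT02. Of 132 counts of genes at least 2-fold apart, 101 stayed within 1.5 times. Shares of all genes were not counted under these settings, so the counts below say nothing of the members against all genes. Those on the deposited values were not taken relative to the median of all genes. On the deposited values, CT14 over CT02 gave 7 higher in the Clock mutant and 5 higher and 0 lower in the Cry-deficient mice. At CT02 the same values gave 9 lower in the Clock mutant than in wild type and 1 lower in the Cry-deficient mice. With lowess correction 1 was higher at CT14 in the Clock mutant. With a floor at the 25th percentile, CT14 over CT02 gave 3 lower in the Clock mutant, 7 higher and 3 lower in the Cry-deficient mice and 5 higher and 1 lower in wild type. That floor gave 6 lower at CT14 and 3 higher and 5 lower at CT02 in the Clock mutant against wild type, and 3 lower at CT14 and 4 higher and 4 lower at CT02 in the Cry-deficient mice. Averaging probe sets left 0 higher at CT14 on the Clock mutant arrays and 1 on the Cry-deficient arrays, and 1 was lower in the Cry-deficient mice than in wild type at CT02. At 3-fold, 1 was higher at CT14 in the Clock mutant, 0 were apart in the other time comparisons, 1 was lower in the Clock mutant than in wild type at CT02 and 0 at CT14, and 0 were apart in the Cry-deficient mice at CT14. Of the settings added after seeing the data, unmarked probe sets gave 2 higher at CT14 for wild type and 1 on the Clock mutant arrays, and scaling without the Clock mutant CT02 array gave 2 higher in wild type. Wars reversed to -0.34 in the Cry-deficient mice under those last settings, which take its other probe set. Of 116 values for single genes 105 stayed at least 2-fold apart, 9 fell short of it and 2 reversed. The causes were not tested. Pairing by replicate number was not possible with 1 array a group, and a fit over both times with genotype as a block was not run. Signal above background limits dim genes: 13 of 71 were not kept.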
